A study of Mus musculus with 4 samples.

Results

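The Hoxd cluster with its neighbour Evx2 was examined as the stretch from Evx2 to Hoxd1, chr2:74652989-74765142 on mm10, for binding of CTCF, a zinc-finger protein of chromatin. All peaks of 4 deposited lists that overlapped it were taken, and peaks sharing at least 1 base were joined. This gave 20 regions of the 121759 found across the genome. The 4 libraries came from wild-type embryos of the B6CBAF1 strain and carried no mutated allele or added agent. Posterior trunk at embryonic day (E) 10 was a pool of some 30 embryos (E9.75 to E10) and held tailbud, presomitic mesoderm and a few somites. Brain was a pool of 6 telencephalons at E12.5, and distal and proximal forelimb were data of E12.5 from an earlier study, processed again. Each tissue had 1 library, so no value below has a replicate check, and differences are between libraries. Trunk was the only library of E10, so tissue and stage cannot be told apart in any contrast with it. Peak lists give no expression, so tissue labels were not checked against marker genes, and in these bulk samples fewer bound cells and weaker binding per cell cannot be told apart.

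Hoxd genes encode homeobox transcription factors that lie in a row in the order in which they are used along the body axis. Hoxd13 to Hoxd9, the posterior AbdB-type group, pattern the tail end of the trunk and the limbs, whereas Hoxd8 to Hoxd1 act earlier and farther forward, and Hox genes are largely silent in the telencephalon. Evx2, an even-skipped type homeobox gene, lies beside Hoxd13. CTCF can halt loop extrusion by cohesin, and the orientation of its sites matters for which loops form.

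Sequence was at hand for promoters, taken from RefSeq (GRCm38.p6, the assembly of mm10) as 250 bases before to 50 after a gene start. The table held all 10 genes. The promoters of 3 genes are printed on the strand of their gene because a peak of at least 2 tissues overlapped them. The earlier of the Hoxd11 promoters, which is not printed, was overlapped at its edge by a peak of trunk alone, whose summit lay outside it. The first is Hoxd10, chr2:74691641-74691940, plus strand, and its capitals mark the 20 bases between the lowest and highest summits of the 4 tissues. The others are Hoxd9, chr2:74697513-74697812, plus strand, and Hoxd3os1, a non-coding gene that partly overlaps Hoxd3, chr2:74716081-74716380, minus strand. Their capitals mark a match to a core of the CTCF motif, which reads CC, any 4 bases, GG, any 1 base and GGC, searched on both strands.
Hoxd10: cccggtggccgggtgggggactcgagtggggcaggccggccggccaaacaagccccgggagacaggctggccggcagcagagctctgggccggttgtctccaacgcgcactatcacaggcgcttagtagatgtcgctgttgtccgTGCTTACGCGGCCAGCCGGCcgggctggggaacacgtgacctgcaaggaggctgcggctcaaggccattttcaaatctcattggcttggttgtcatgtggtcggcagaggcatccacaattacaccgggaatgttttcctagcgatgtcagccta
Hoxd9: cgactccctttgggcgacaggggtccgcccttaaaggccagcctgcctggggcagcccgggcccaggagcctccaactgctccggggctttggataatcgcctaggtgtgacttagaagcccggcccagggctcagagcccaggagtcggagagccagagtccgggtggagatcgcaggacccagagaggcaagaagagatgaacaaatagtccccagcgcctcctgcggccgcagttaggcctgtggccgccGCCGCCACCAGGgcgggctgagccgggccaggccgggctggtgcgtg
Hoxd3os1: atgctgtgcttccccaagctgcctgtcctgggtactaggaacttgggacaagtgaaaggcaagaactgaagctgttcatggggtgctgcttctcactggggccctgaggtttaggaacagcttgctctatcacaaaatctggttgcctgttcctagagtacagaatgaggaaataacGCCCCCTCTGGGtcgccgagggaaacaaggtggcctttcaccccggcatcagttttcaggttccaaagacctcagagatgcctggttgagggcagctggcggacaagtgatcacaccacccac

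Across all RefSeq promoters 11.1% held this core, and 41.4% did among the 1765 promoters (5.37%) with a trunk summit of a region called in all 4 tissues. Of the 15 promoter windows in the stretch 3 held it, those printed for Hoxd9 and Hoxd3os1 and one of the non-coding gene Gm38462 that no peak covered. The Hoxd9 match, chr2:74697766-74697777, lay on the minus strand, 10 bases from the trunk summit and 7 from the brain summit. The Hoxd3os1 match, chr2:74716192-74716203, lay on the plus strand. It was inside the peak of each tissue but 246 to 267 bases from the strongest summits. The letters searched were not in the Hoxd10 promoter. A 14-base degenerate CTCF consensus, with up to 1 mismatch, had no match in any of the 15 windows. It matched 2.28% of all promoters, and 26.3% of those with a trunk summit of a region called in all 4 tissues. With so few windows, the lack of a match shows little.

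Peaks called in every tissue filled the Evx2-to-Hoxd3 side of the cluster and stopped inside Hoxd3. Posterior trunk had 20 of the 20 regions, brain 11 and distal and proximal forelimb 10 each. Trunk was also the longest list across the genome, with 106662 peaks against 74127 in brain, 64793 in distal and 63873 in proximal forelimb. The 10 shared regions compare with 42.4% of regions called in all 4 tissues across the genome. Another 9 were called in posterior trunk only, against 28.4% across the genome, and 1 in posterior trunk and brain, against 5.46%. Neighbouring shared regions were 0.059 to 12.962 kb apart. No shared region lay in the 48.732 kb from the last one to the far end of Hoxd1.

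**Figure D1:**
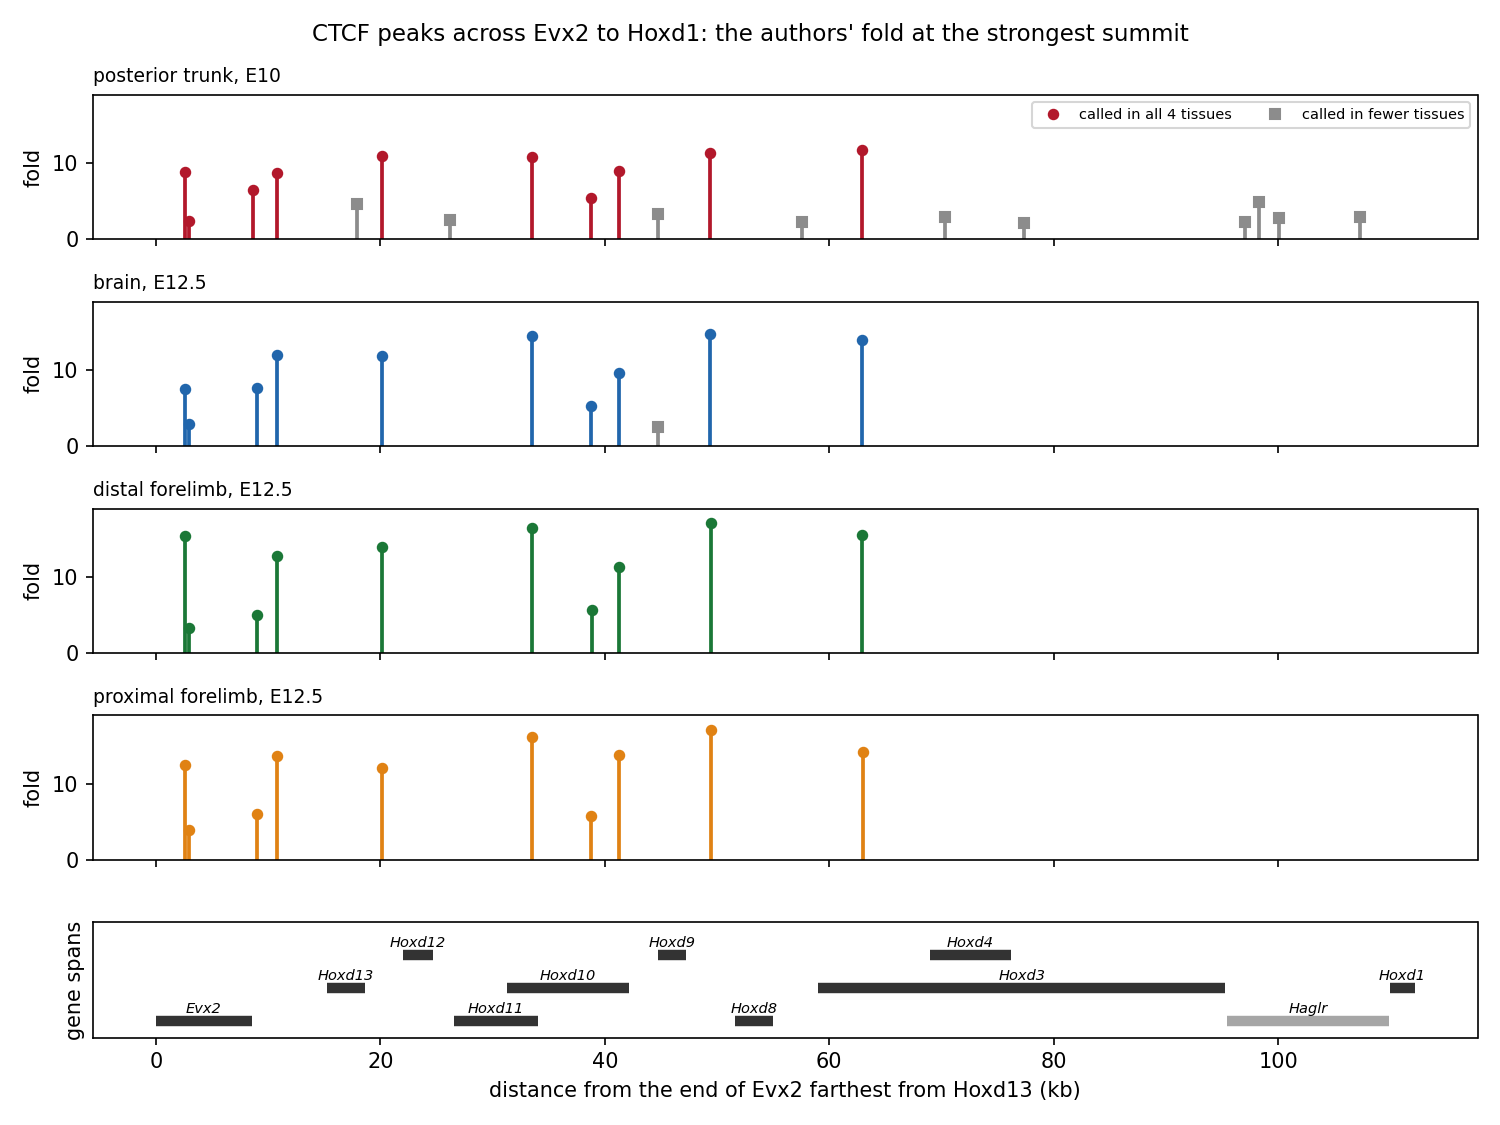
The authors' fold (vertical axis) at the strongest summit of each peak is plotted against distance in kb from the end of Evx2 farthest from Hoxd13, 1 panel per tissue, with gene spans below. Coloured circles are the 10 regions called in all 4 tissues and grey squares the others; beyond 63 kb only posterior trunk has peaks.

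Read by gene, Evx2 touched 3 shared regions, Hoxd10 touched 3, and Hoxd11 and Hoxd3 touched 1 each. Hoxd13, Hoxd9 and Hoxd4 touched 1 region each that was not shared, and Hoxd3 touched 2 such regions besides its shared one. The spans of Hoxd12, Hoxd8 and Hoxd1 touched no region. Hoxd10 was the gene with a shared summit in its promoter window, 1 of 11 windows of the 10 genes. From the other gene starts, the nearest shared summit in trunk lay 1882 bases away for Hoxd12, 2120 for Evx2, 2220 for Hoxd8 and 3529 for Hoxd9. These distances were 3937 bases for Hoxd3, 4176 for Hoxd11, 4476 for Hoxd13, 6048 for Hoxd4 and 47050 for Hoxd1. Starts were those of the promoter windows and need not be the edge of the gene span by which regions were counted. The Evx2 span ran past its start, 74659557, to 74661520, close to the trunk summit at 74661677. The region with that summit reached the span only by its trunk and distal forelimb peaks, and its summits in all tissues lay beyond the span. The Hoxd10 span began at 74684273, upstream of its start at 74691891, so the region it shares with the Hoxd11 span lay before that start. Of 6 non-coding genes picked by name for the cluster, 3 were in the gene table, namely Haglr, Hoxd3os1 and Mir10b. It also held Gm31790, which touched 2 shared regions, and Gm38462 and Gm14424, which each touched 1 region called in trunk only. Haglr, a non-coding gene between Hoxd3 and Hoxd1, touched 4 regions called in trunk only, Hoxd3os1 touched 1 shared region and 1 called in trunk only, and the microRNA gene Mir10b touched none.

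Strength is given as the authors' fold, the ratio of the summit pileup (overlapping fragments) to the local background with 1 added to both. Since folds of different lists have no common scale, each was also ranked among the 51657 regions called in all 4 lists, as a percentile with the strongest at 100. A percentile carries the 95% exact Poisson interval of its pileup, which covers counting error only, since fragments without molecular identifiers are not independent molecules. Libraries were called different at a region where these intervals did not overlap, over 6 pairs of libraries and 10 regions.

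Evx2 held the shared region with the widest range of percentiles between tissues, 41.6 points. At chr2:74655193-74655751, 3998 bases into the gene from its start by the trunk summit, the pileup was 202 on a background of 22.0 in trunk and 104 on 12.96 in brain. In distal forelimb it was 178 on 10.6, and in proximal forelimb 111 on 7.96. The folds were 8.81 (7.64 to 10.1) in trunk, 7.52 (6.16 to 9.10) in brain and 15.4 (13.3 to 17.9) in distal forelimb, with bounds of 10.3 to 15.03 in proximal forelimb. Its percentile was 41.8 (31.8 to 53.3) in trunk and 43.5 (33.1 to 54.0) in brain. In distal forelimb it was 83.4 (73.7 to 92.5) and in proximal forelimb 72.7 (61.8 to 84.3). Both forelimb parts stood above trunk and brain without overlap, whereas trunk and brain overlapped each other. The forelimb libraries came from an earlier study, so tissue and study cannot be told apart in this contrast. Both forelimb parts also stood above trunk and brain when pileup was ranked in place of fold, at percentiles of 83.1 and 65.7 for distal and proximal forelimb against 51.5 for trunk and 42.4 for brain. Trunk was then the higher of trunk and brain, which it was not by fold. By pileup and by p, distal forelimb also stood above proximal forelimb there, which it did not by fold. Summits of the 4 tissues lay within 9 bases.

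The adjoining Evx2 region, chr2:74655811-74656111, was the weakest of the shared regions in each list. It began 59 bases after the region described above ended. Its fold was 2.43 in trunk and 2.88 in brain, against 3.28 in distal and 3.91 in proximal forelimb. The percentiles ran from 0.317 in trunk to 10.1 in proximal forelimb, and all intervals overlapped by fold. When every list was shortened to the same length, or scaled to the shallowest one, this region was called in the other 3 tissues but not in trunk.

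At the end of Evx2 that faces Hoxd13, CTCF occupied a wide region whose strongest summit lay elsewhere in trunk than in the other tissues. At chr2:74661460-74662198 the peak was 729 bases wide in trunk and 590 in brain, against 660 in distal and 608 in proximal forelimb. Trunk and both forelimb parts had 2 called summits there and brain had 1, a combination seen in 0.0832% of shared regions. The combination counted was the one this region shows, so that share is a description only. The brain peak, from 74661609 to 74662198, also covered the place of the Evx2-side summits, 74661640 to 74661706. A single called summit thus does not show that brain lacked binding there. Peaks with several summits made up 3.27% of all peaks in trunk and 1.79% in brain, and 1.41% and 1.38% in distal and proximal forelimb. The summit nearer to the body of Evx2 had a pileup of 245 in trunk, 57 in distal forelimb and 47 in proximal forelimb. The other summit had a pileup of 179 in trunk and 187 in brain, against 73 in distal and 91 in proximal forelimb. The Evx2-side summit was thus the higher in trunk and the lower in both forelimb parts.

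As a share of both pileups, the Evx2-side summit took 57.8% in trunk (exact Clopper-Pearson 95% interval 52.9 to 62.5). It took 43.8% in distal forelimb (35.2 to 52.8) and 34.1% in proximal forelimb (26.2 to 42.6). The trunk interval lay above both, against distal forelimb by a narrow margin, and the forelimb intervals overlapped. Across the genome, 19.2% of 494 comparable 2-summit regions had intervals apart between trunk and distal forelimb, and 17.8% of 511 between trunk and proximal forelimb, and 0% of 431 between the forelimb parts. These summits were 281 to 359 bases apart. Taking the strongest summit of each tissue, the spread was 325 bases here. The other 9 shared regions had spreads of 7 to 22 bases, and 1.98% of shared regions genome-wide exceeded 100.

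**Figure D2:**
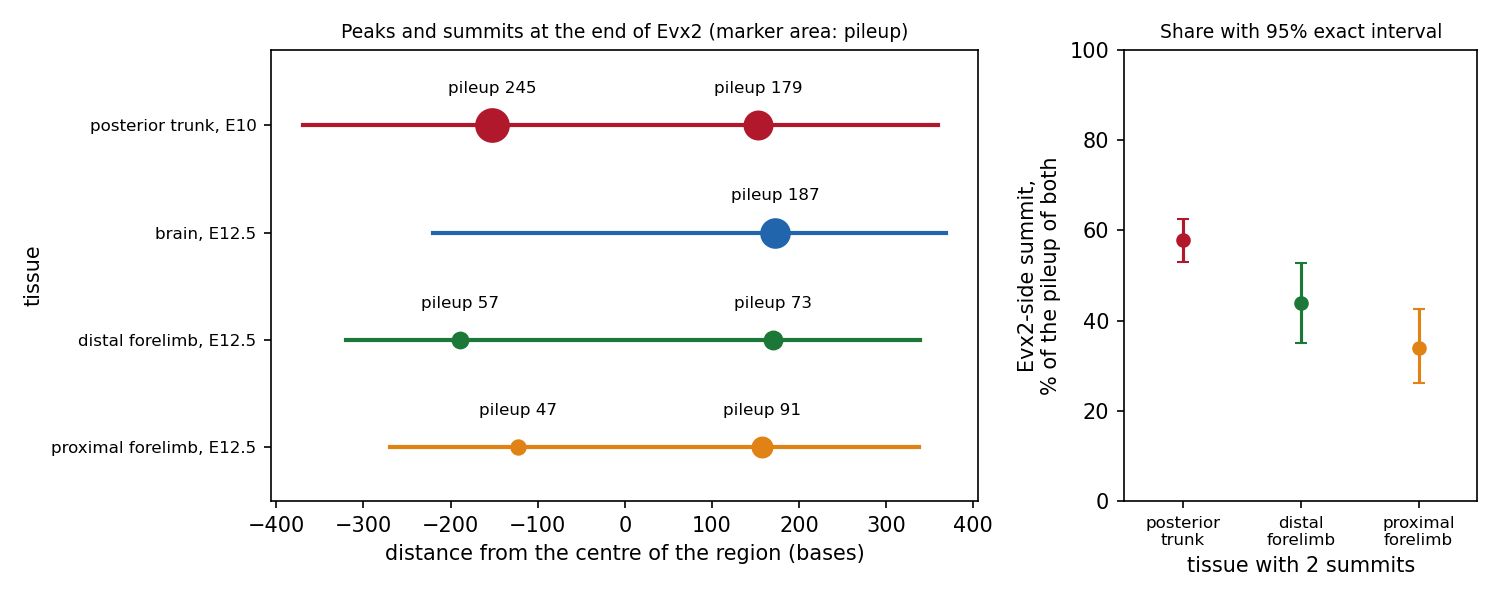
Left, the peak of each tissue at the Hoxd13-facing end of Evx2 is drawn as a line against distance in bases from the region's centre, with summits as circles whose area follows the pileup. Right, the Evx2-side summit's percentage of the pileup of both summits is shown with 95% exact intervals, 57.8% in posterior trunk against 43.8% and 34.1% in the forelimb parts; brain has a single summit and no share.

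Of the same region's strongest summits, the fold was 6.46 in trunk and 7.64 in brain, against 4.93 in distal and 6.01 in proximal forelimb. Brain, at percentile 44.3 (36.6 to 52.1), stood above trunk at 22.0 (15.9 to 29.1) and distal forelimb at 20.4 (8.94 to 32.2). The trunk value belongs to the other summit than the brain value. Proximal forelimb, at 33.1, overlapped the rest.

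Between Evx2 and Hoxd13, chr2:74663488-74664014 had a fold of 8.73 in trunk and 11.9 in brain, against 12.8 in distal and 13.7 in proximal forelimb. Trunk stood at percentile 41.1 (33.1 to 50.1), below the other 3 tissues at 71.6 to 78.5. Both this region and the previous one touched Gm31790, a non-coding gene. Between Hoxd13 and Hoxd12, chr2:74672939-74673350 had folds of 10.99 in trunk and 11.9 in brain, against 13.9 in distal and 12.1 in proximal forelimb. No pair of libraries differed there by fold, and percentiles were 60.5 to 76.7.

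The posterior genes Hoxd11 and Hoxd10 had a strong region where their spans overlap. At chr2:74686188-74686851 the fold was 10.8 in trunk and 14.5 in brain, against 16.5 in distal and 16.2 in proximal forelimb. Trunk was at percentile 59.0 (49.2 to 69.2), and brain and both forelimb parts were together at 87.3 to 88.8. All summits fell within 12 bases.

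The Hoxd10 promoter printed above lay in a moderate region, chr2:74691597-74691978. Its fold was 5.43 in trunk and 5.25 in brain, against 5.69 in distal and 5.70 in proximal forelimb. Summits were 86 to 105 bases upstream of the gene start, and no pair of libraries differed. Further into Hoxd10, chr2:74693958-74694494 had folds of 8.96 in trunk and 9.66 in brain, against 11.3 in distal and 13.7 in proximal forelimb. Proximal forelimb, at percentile 78.7 (69.7 to 87.6), stood above brain at 57.8 (49.0 to 67.1) and trunk at 43.2 (34.9 to 52.4). Distal forelimb, at 64.1 (55.6 to 73.0), was above trunk and overlapped brain and proximal forelimb.

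Strong regions also lay on either side of Hoxd8. Between Hoxd9 and Hoxd8, chr2:74702115-74702679 had folds of 11.4 in trunk and 14.8 in brain, against 17.1 in distal and 17.1 in proximal forelimb. It ranked first of the 10 by percentile in brain and both forelimb parts. In trunk it came after the Hoxd3 region, and its percentile there, 63.6 (53.9 to 74.1), was below the 88.6 to 92.2 of the other 3. The Hoxd3 region, chr2:74715642-74716410, which holds the Hoxd3os1 start, had folds of 11.8 in trunk and 13.96 in brain, against 15.5 in distal and 14.2 in proximal forelimb. At 687 to 769 bases its peaks were wide, and no pair of libraries differed.

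**Figure D3:**
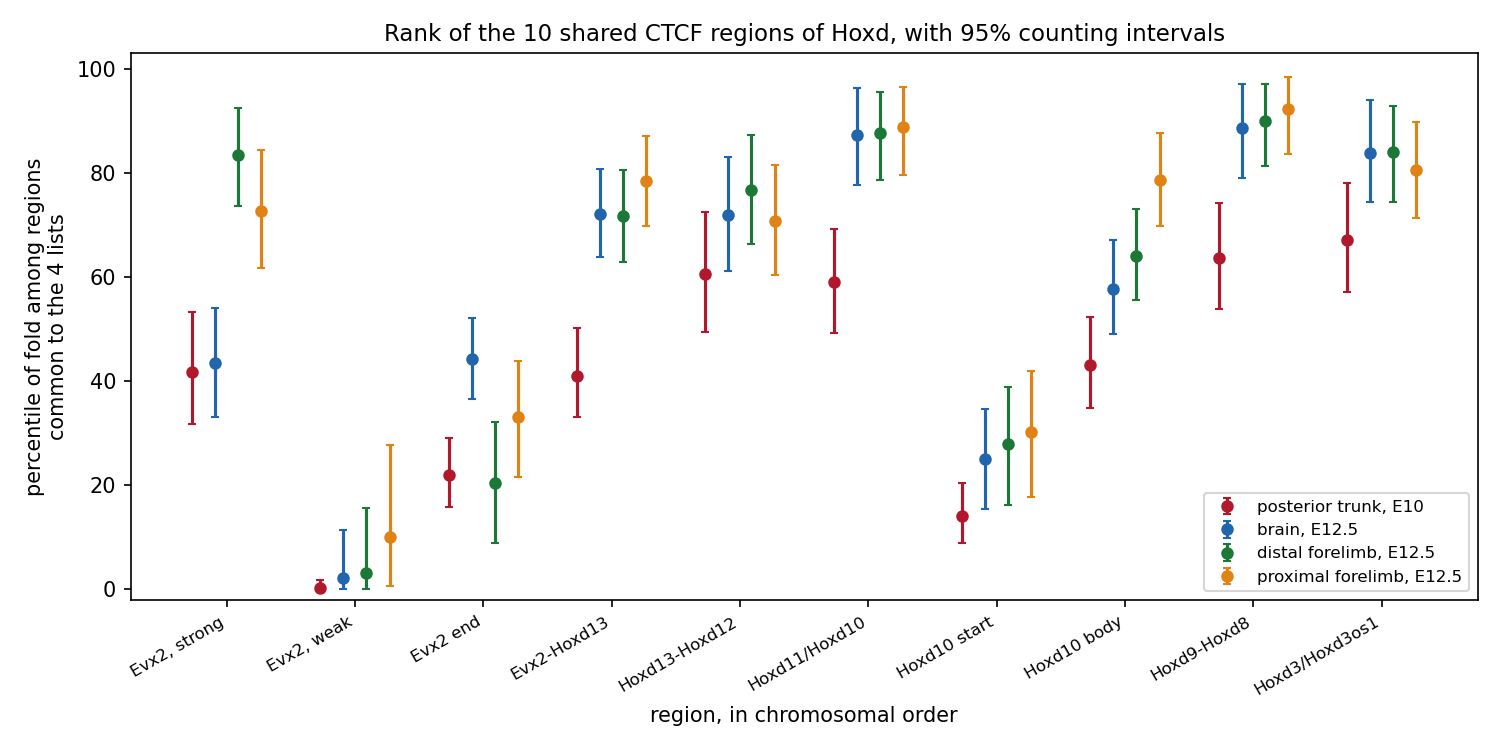
The percentile of the fold among regions common to the 4 lists (vertical axis, strongest at 100) is plotted for the 10 shared regions in chromosomal order, 1 colour per tissue, with 95% counting intervals. The Evx2 region chr2:74655193-74655751 has both forelimb parts, from an earlier study, at 72.7 and 83.4 and trunk and brain at 41.8 and 43.5. Elsewhere posterior trunk, the only library of E10, is mostly the lowest.

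Over the 60 comparisons, intervals were apart in 18, at 6 of the 10 regions, where 30.5% of shared regions across the genome had such a pair. Posterior trunk differed from brain at 4 regions (background 17.1%), from distal forelimb at 5 (16.8%) and from proximal forelimb at 5 (18.9%), and was the lower in each. As trunk alone was of E10, tissue and stage cannot be told apart in these contrasts. Brain differed from distal forelimb at 2 (3.2%), once in each direction, and from proximal forelimb at 2 (3.73%), where it was the lower. Distal and proximal forelimb differed at none (0.438%).

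Only 6 of the 18 were also apart, in the same direction, when −log10 p and pileup were ranked in place of fold. These were the 4 at chr2:74655193-74655751 in Evx2, brain above distal forelimb at the Hoxd13-facing end of Evx2, and brain below proximal forelimb inside Hoxd10. Each of the 6 sets a forelimb library of the earlier study against trunk or brain, so tissue and study cannot be told apart in them. Under this stricter rule 7.53% of shared regions were called for trunk and brain, 6.97% for trunk and distal forelimb and 8.41% for trunk and proximal forelimb. It called 2.8% for brain and distal forelimb, 3.19% for brain and proximal forelimb and 0.362% for the forelimb parts. From the Hoxd13-facing end of Evx2 to the region before Hoxd8, the 5 regions where trunk was below another tissue by fold were thus not called so by p or pileup. Inside Hoxd10, trunk even stood above brain by pileup, at percentile 84.0 against 65.7. The local background at the 10 regions was 2.28 to 3.97 times the lowest of the list in trunk (median 2.96), while the medians were 2.84 in distal forelimb, 2.45 in proximal forelimb and 2.15 in brain. Medians over all shared regions were 1.91 in trunk, 1.69 and 1.63 in the forelimb parts and 1.60 in brain. The part of this background in the trunk ranks was not tested.

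The order of the 10 regions within the cluster was similar in each list. Spearman's rho of the percentiles over the 10 regions ran from 0.82 to 0.92 between lists, given as a description, since neighbouring regions share a library and their local background. The weak Evx2 region was last in all 4 lists.

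Hoxd9 was the gene with a peak over its start in the trunk and brain lists and in neither forelimb list. The region chr2:74697618-74697921, which covers the later part of the printed promoter, had a fold of 3.30 (2.76 to 3.92) in posterior trunk and 2.49 (1.92 to 3.17) in brain. Its summits lay 2 bases from the gene start in trunk and 1 in brain. The background under it was 38.4 in trunk and 24.7 in brain, higher than at any other of the 20 regions in those lists. The intervals of the folds overlapped.

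Regions called in trunk only had folds of 2.07 to 4.84 in trunk, and 2 of the 9 were above 4. Among shared regions the weak one in Evx2, with a trunk fold of 2.43, lay inside this range. Inside Hoxd13, chr2:74670679-74671054 had a pileup of 102 on a background of 21.0, a fold of 4.69 (3.83 to 5.68). Inside Haglr, chr2:74751135-74751515 had a pileup of 82 on a background of 16.2, a fold of 4.84 (3.86 to 5.99). The other Haglr regions had folds of 2.25, 2.82 and 2.97. Hoxd4, whose nearest summit was 1300 bases from its start, had 2.97 at chr2:74723082-74723496. Before the earlier start of Hoxd11, chr2:74678993-74679412 had 2.45, between Hoxd8 and Hoxd3 chr2:74710368-74710567 had 2.31, and in Hoxd3 beyond Hoxd4 chr2:74730199-74730418 had 2.07.

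On its lowest background, a peak needed a fold of at least 2.098 to be called in brain, while distal forelimb needed 2.49 and proximal forelimb 2.51. On a higher background a smaller fold was enough. The lower bounds of the trunk folds exceeded this in 4 of the 9 for brain and in 2 of the 9 for either forelimb part, the 2 being the Hoxd13 region and the strongest Haglr region. The share over all trunk-only regions of the genome is not given here, so these counts describe the 9 only. Folds of different lists are set side by side here and are not on one scale. For the other 7, the lower bound of the trunk fold was below these forelimb limits. As the local background of the other tissues is not listed where no peak was called, the limit at each region itself is not known. Trunk was 2.21 and brain 2.02 times as deep as distal forelimb by lowest background, and proximal forelimb 1.08 times.

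**Figure D4:**
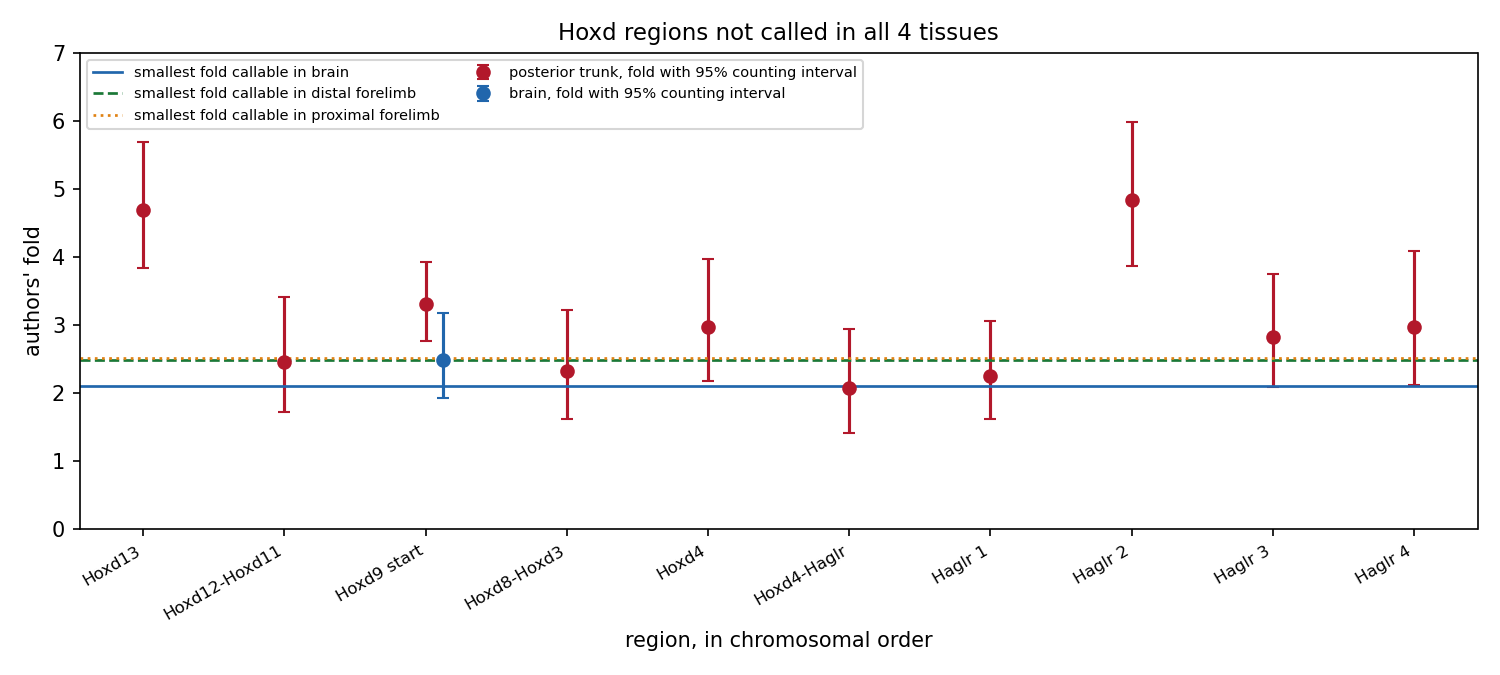
Folds of the 10 regions not called in all 4 tissues are plotted in chromosomal order for posterior trunk (red) and brain (blue, Hoxd9 start only), with 95% counting intervals; lines mark the smallest fold callable in the other lists on their lowest background. The Hoxd13 and strongest Haglr regions, at 4.69 and 4.84, have intervals above all 3 lines, as does the trunk value at the Hoxd9 start.

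For comparison with the Hoxb and Hoxc clusters, shared regions numbered 8.92 per 100 kb from Evx2 to Hoxd1, 6.90 from Hoxb13 to Hoxb1 and 3.46 from Hoxc13 to Hoxc4. By fold, at least 1 pair of libraries differed at 6 of 10 shared regions in Hoxd, 8 of 12 in Hoxb and 1 of 4 in Hoxc. Across the genome this held for 30.5% of shared regions. Counts under the stricter rule are not given for Hoxb and Hoxc. The median percentile of shared regions in trunk was 42.5 in Hoxd, 54.7 in Hoxb and 64.6 in Hoxc. In brain these medians were 64.8 in Hoxd, 85.1 in Hoxb and 78.0 in Hoxc. They were closer in distal forelimb, at 74.2 in Hoxd, 77.8 in Hoxb and 76.3 in Hoxc, and in proximal forelimb, at 75.6 in Hoxd, 81.0 in Hoxb and 82.0 in Hoxc. No test of these differences was made, as each rests on 1 library per tissue.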

How the data were processed

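CTCF ChIP-seq peak lists of 4 tissues, 1 library each and grouped by the labelled tissue, were used. Peaks were called by MACS2 2.1.1.20160309 on mm10 after Bowtie2 2.3.5, with cutadapt 1.16 and SAMtools 1.9 also named, per the submitters' processing notes. For options, control library and removal of repeated reads, nothing is given in the sources used here. Each deposited row holds a fold (ratio to background), a −log10 p, a −log10 q and a score, and the score was not used. Rows of 1 interval were merged, keeping the strongest summit, and chromosomes 1 to 19, X and Y were used. Whole pileups and backgrounds were recovered from fold and p and gave back −log10 p to within 0.00034. Read totals are unknown. Lists held 106662, 74127, 64793 and 63873 peaks in posterior trunk, brain, distal and proximal forelimb. Scripts were tested on simulated data. All 10 genes and all 20 regions were named, and region names follow gene spans without exon models. The members and lists were chosen with earlier results of these data known. No test across tissues was made. Alternatives were other thresholds, list lengths, overlaps, depths, ranked measures, reference sets and motifs. The study's own site names were not matched here. The software was matplotlib 3.10.9, pandas 2.3.3, scipy 1.17.1 and numpy 2.4.6 under Python 3.11.15.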

Additional observations from a re-analysis of the deposited data

How the results depend on the processing

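The 10 regions called in all 4 tissues numbered 9 or 10 under every alternative run. The 9 trunk-only regions became 5 at a −log10 q of 5 or more, 2 in lists of equal length and 4 after scaling to the shallowest list with a −log10 p of at least 5. The 2 that remained in each of these 3 settings were those in Hoxd13 and the strongest in Haglr. No share over the genome is given for these settings, so the counts describe this stretch only. The 18 pairs with intervals apart became 7 when −log10 p was ranked and 11 when pileup was ranked, of which 6 were the same pairs in either case, and stayed at 18 with the other reference sets. The count of 1 shared region with strongest summits over 100 bases apart became 0 when the nearest summits were compared. The 1 promoter with both a summit and a match to the short motif, Hoxd9, became 0 with the 14-base consensus, with or without 1 mismatch. Searching whole promoters and allowing 1 mismatch were chosen after seeing the data, because no genome sequence was used here. By lowest background, trunk and brain were about 2 times as deep as the forelimb libraries, while read totals are unknown. The part of depth in the calls of weak regions was not tested. No paired analysis was possible because there was a single library per tissue.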
